A study of Mus musculus with 28 samples.

Results

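Lcn2, S100a8, S100a9, Ngp, Mmp8, Retnlg and Wfdc17 are 7 genes best known from neutrophils and other myeloid cells, and here they were followed on arrays of CD4+ T cells, cultured before transfer and sorted after it. They were chosen from these same data for their higher level in Th17 than in Th1 samples, so that difference is described below without a test. All 7 were among the 19938 genes measured, each by 1 probe set that carries 1 gene symbol.

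The T cells came from BwTRP1 Rag1-/- mice, whose CD4+ cells bear a transgenic receptor for TRP1, a protein of pigment cells, and which make no T or B cells with other receptors of their own. They were cultured for 7 days with irradiated C57/B6 splenocytes that presented TRP1 peptide. Th1 cultures received IL-12 and an antibody to IL-4. Th17 cultures received IL-1, IL-6, IL-21, TGFβ2 and antibodies to IL-2, IL-4 and IFN-γ. Medium with IL-2 was added later, and the Th17 cultures also had IL-23. The cells, which carry Thy1.2, were then given to B6.PL mice, which carry Thy1.1 and had been irradiated with 5 Gy, a sublethal dose that leaves the host with its own blood-forming cells. On day 5 and day 15 spleens and inguinal lymph nodes were pooled, enriched for CD4 by removing other cells, and sorted for Thy1.2. Each sample was split, and 1 part was restimulated with CD3 and CD28 antibodies over 2 h. Day 0 held 1 Th1 and 1 Th17 culture, day 5 held 3 samples of each type, and day 15 held 2 Th1 and 4 Th17 samples, which with both parts makes 28 arrays. The labels do not state whether the samples of a group were taken from different mice, so the p-values cover the spread among samples, which may be technical.

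Neutrophils store their antimicrobial proteins in granules that are filled in sequence as the cell matures. Primary granules with myeloperoxidase and elastase form first, in precursors, then specific granules with lipocalin-2, lactoferrin and collagenase, and then gelatinase granules. S100a8 and S100a9 differ from these in that their product, calprotectin, lies mostly in the cytosol of neutrophils and monocytes. CD4+ T cells are not known as a source of such proteins, whereas IL-17, the cytokine of Th17 cells, is known to raise Lcn2 in responding epithelial and stromal cells and to draw neutrophils into tissue.

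Of the 7 genes, 5 carry the core pattern TTGCNNAA of C/EBP factors, the regulators of granule genes in maturing neutrophils, between 250 bases before and 50 after their start in RefSeq (GRCm38.p6). The stretches before the start are shown for the 3 specific granule genes, with matches in capitals, as the genes among the 7 whose products specific granules store. The Lcn2 stretch is chr2:32387740-32387989 on the minus strand, the Ngp stretch chr9:110419558-110419807 and the Mmp8 stretch chr9:7558179-7558428, both on the plus strand, each written 5′ to 3′ along the gene.
Lcn2: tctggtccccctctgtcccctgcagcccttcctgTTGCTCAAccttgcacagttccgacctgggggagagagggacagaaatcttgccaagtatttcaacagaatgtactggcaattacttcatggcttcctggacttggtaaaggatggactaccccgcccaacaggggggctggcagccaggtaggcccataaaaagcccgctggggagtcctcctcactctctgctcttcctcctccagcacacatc
Ngp: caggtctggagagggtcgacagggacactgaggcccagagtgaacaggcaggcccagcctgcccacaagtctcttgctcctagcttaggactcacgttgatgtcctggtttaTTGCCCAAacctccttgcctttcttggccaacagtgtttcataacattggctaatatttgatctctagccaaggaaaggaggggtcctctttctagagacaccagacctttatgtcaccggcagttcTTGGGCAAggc
Mmp8: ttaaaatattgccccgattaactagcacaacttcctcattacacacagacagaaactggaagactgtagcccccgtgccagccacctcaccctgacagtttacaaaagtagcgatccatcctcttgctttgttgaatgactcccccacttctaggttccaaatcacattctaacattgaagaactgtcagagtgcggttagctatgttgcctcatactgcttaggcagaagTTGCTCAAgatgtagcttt
The match starts at position -216 from the start of Lcn2, at -138 and -11 in Ngp and at -19 in Mmp8, and S100a9 and Retnlg held 1 each, at -236 and -246. S100a8 and Wfdc17 held no match in this window. Over all 32851 RefSeq promoters of this length, 10.8% held the pattern on either strand. The pattern AGAGGAAG of PU.1 was in 0 of the 7 promoters and in 4.55% of all. These are matches of letters, not measured binding.

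Across the series, array medians ran from 6.77 to 7.09 on the log2 scale of the deposited values, called log2 units here, and arrays of a group correlated at 0.987 to 0.998. No detection calls were used, so a level under the array median is not shown to be above background. The T cell markers Cd3e and Cd4 lay at 12.78 or more and 11.90 or more on every array. Cd8a, of CD8 T cells, lay at 7.23 or less. Cd8b1, of the same cells, lay higher, at 9.22 in the unstimulated Th1 culture. It averaged 8.61 in the unstimulated Th1 and 8.40 in the unstimulated Th17 samples of day 5. At day 5, 1 Th17 sample stood apart for the granule genes: sample 1 was the highest of 3 for 7 of 7 genes in both of its parts.

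In culture, on the day of transfer, the 7 genes were already higher in the Th17 than in the Th1 culture, by a median of 3.31 log2 units. Ngp, which encodes neutrophilic granule protein, stood at 11.39 in the Th17 culture and at 6.27 in the Th1 culture. Lcn2, which encodes the iron-scavenging lipocalin-2, stood at 11.11 and 7.52. Both lay far above the array medians in the Th17 culture. S100a8 stood at 9.36 against 5.63 and S100a9 at 9.14 against 5.83. Wfdc17, a small secreted protein with a whey acidic protein domain, stood at 10.03 against 6.90. Mmp8, the neutrophil collagenase, stood at 7.15 against 4.74. Retnlg, a resistin-like secreted protein, was closest between the cultures, at 6.27 against 5.17, both under the array medians. With 1 culture of each type there is no spread for these values.

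After 5 days in the host all 7 genes were higher in each of the 3 unstimulated Th17 samples than in any Th1 sample, as 9.74% of all genes were, a contrast on which the choice of genes rests. The median difference was 2.96 log2 units, against -0.04 over all genes, and it was 2.20 without Th17 sample 1. In such sorted bulk samples, fewer cells that carry a transcript and less transcript per cell cannot be told apart.

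Among the specific granule genes, Lcn2 stood at 12.06, 9.31 and 10.13 in Th17 samples 1, 2 and 3 and at 6.48, 7.29 and 7.13 in the Th1 samples. Ngp stood at 11.06, 9.05 and 8.73 against 6.04, 7.07 and 6.89. Mmp8 stood at 9.93, 6.54 and 7.22 against 4.65, 4.80 and 4.95. The lowest Th17 sample lay above the highest Th1 sample for each of the 3, and sample 1 lay at least as far above the other Th17 samples as those differed from one another. The differences of the means were 3.53, 2.95 and 3.10.

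The calprotectin genes lie next to each other on chromosome 3. S100a8 stood at 10.54, 7.92 and 8.63 in the Th17 samples and at 6.03, 5.99 and 6.18 in the Th1 samples. S100a9 stood at 10.13, 7.67 and 7.53 against 6.30, 6.48 and 6.50. S100a9 had the smallest difference of the 7 genes, 2.02, against 2.96 for S100a8. Of the secreted proteins, Wfdc17 had the largest, 3.70, with 11.60, 8.87 and 10.02 in the Th17 samples and 5.57, 7.26 and 6.56 in the Th1 samples. Retnlg stood at 9.97, 6.95 and 8.06 against 5.15, 5.58 and 5.75, a difference of 2.84.

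**Figure D1:**
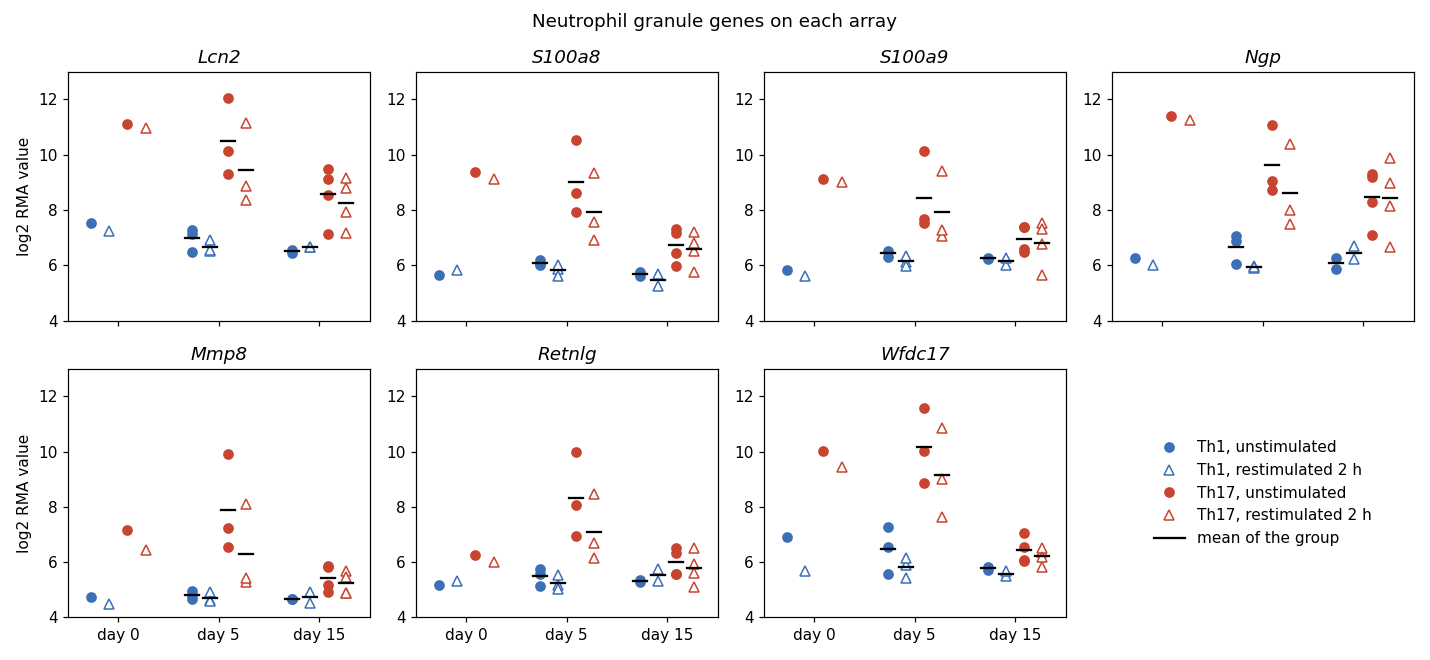
Level of each gene (log2 RMA value, vertical axis) on every array by day after transfer, with Th1 in blue, Th17 in red, unstimulated parts as filled circles, restimulated parts as open triangles and bars at group means. Lcn2 in the unstimulated Th17 samples of day 5 ran from 9.31 to 12.06, above all Th1 samples of that day, while at day 15 the lowest Th17 sample, at 7.13, came near the Th1 samples.

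By day 15 the genes had parted in how much of the day 5 level was left. Unstimulated Th17 means were lower at day 15 than at day 5 by 1.14 (Ngp) to 3.74 (Wfdc17) log2 units, and for 5 of 7 genes every day 5 sample lay above every day 15 sample, as for 11.6% of all genes. Because the genes were chosen for high Th17 levels, this too is a description. Ngp and Lcn2 were the exceptions, whose days overlapped.

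Lcn2 stood at 8.54, 9.48, 7.13 and 9.12 in Th17 samples 1 to 4 of day 15, against 6.46 and 6.55 in the Th1 samples. Ngp stood at 8.28, 9.30, 7.11 and 9.21 against 6.28 and 5.85. Both thus still lay above their Th1 samples, by 2.07 and 2.41 on average. Sample 3 was the lowest of the 4 for all 7 genes in both of its parts.

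S100a8 stood at 6.46, 7.16, 5.96 and 7.30 in the Th17 samples of day 15 and at 5.59 and 5.76 in the Th1 samples. S100a9 stood at 6.59, 7.40, 6.48 and 7.38 against 6.23 and 6.27. The groups did not overlap, with differences of 1.04 and 0.71. Mmp8 stood at 5.17, 5.86, 4.93 and 5.81 against 4.68 and 4.66, all under the array medians. Retnlg stood at 5.58, 6.51, 5.57 and 6.32 against 5.28 and 5.34, also all under them. Wfdc17 stood at 6.08, 6.55, 6.04 and 7.04 against 5.72 and 5.84, after having the highest difference of the 7 at day 5. Of these Wfdc17 values only the 7.04 lay above its array median. The median difference between the types at day 15 was 0.77, and all 7 genes again had every Th17 above every Th1 sample, as 11.6% of all genes had.

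The course from culture to day 5 also differed from gene to gene. Retnlg was 2.05 log2 units higher in the day 5 mean than in the Th17 culture and Mmp8 0.75 higher, while Ngp was lower, at -1.77. Lcn2, S100a8 and S100a9 differed by -0.60, -0.33 and -0.70, and Wfdc17 by 0.13. Retnlg was above the culture in all 3 day 5 samples, Mmp8 in 2, and Ngp was below it in all 3. Each course starts from 1 culture array, so its error is unknown.

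**Figure D2:**
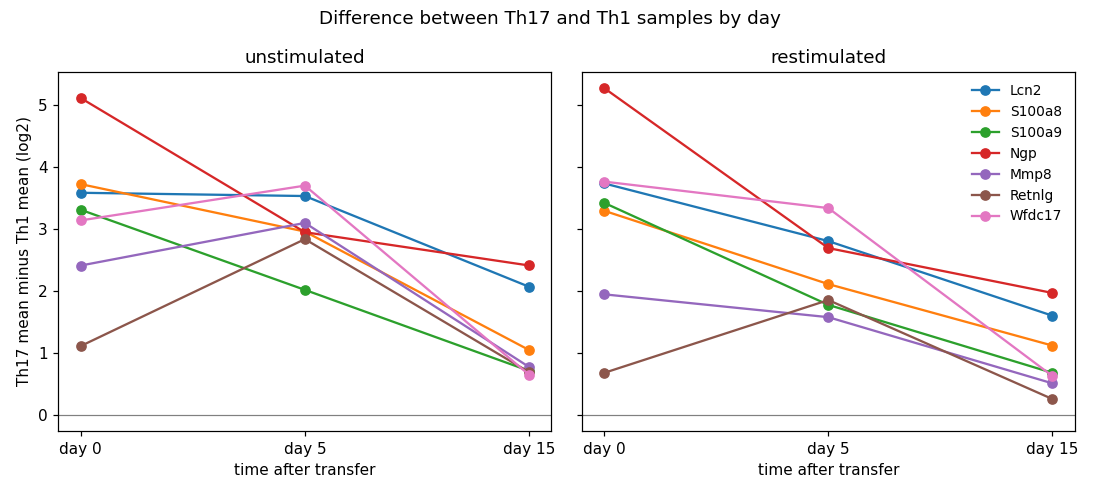
Th17 mean minus Th1 mean (log2, vertical axis) for each gene at day 0, day 5 and day 15, for unstimulated parts on the left and restimulated parts on the right, with 1 array a group at day 0. Ngp ran from 5.11 over 2.95 to 2.41, whereas Retnlg was highest at day 5, at 2.84.

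In Th1 samples the genes were low throughout. After transfer, unstimulated Th1 means ran from 4.67 for Mmp8 at day 15 to 6.97 for Lcn2 at day 5. Wfdc17 varied most among them at day 5, from 5.57 to 7.26. S100a8 and S100a9 had every day 5 Th1 sample above every day 15 one, as 25.6% of all genes had, by only 0.39 and 0.17 log2 units between the means.

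Restimulation through the T cell receptor was not used to choose the genes, though the unstimulated Th17 arrays of day 5 and day 15 enter both the choice and this comparison. In Th17 cells of day 5 the restimulated part was below the unstimulated part of the same sample number for all 7 genes in all 3 samples, or 21 of 21 differences, from -1.82 to -0.27. Of all genes, 23.2% were lower in every one of these 3 pairs. Fitted without regard to the sample, 0 of 7 genes passed (limma, adjusted p 0.112 to 0.66, with 3 genes at an unadjusted p under 0.05), where 4.08% of all genes were called lower. That count was 1 (Mmp8) without both parts of sample 1, 2 without the unstimulated array of sample 2 and 3 without the restimulated array of sample 1. Same-numbered parts deviated together from their group means at day 5, so the sample was also fitted as a block, and there 6 of 7 genes fell, against 4.13% of all genes.

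Mmp8 had the largest change. It stood at 9.93, 6.54 and 7.22 before and at 8.11, 5.29 and 5.44 after the 2 h, in samples 1, 2 and 3. All 3 same-numbered pairs dropped, by -1.82, -1.25 and -1.78, and the order of the sample numbers stayed the same. The mean change was -1.62 (SE 0.13 with the block, limma adjusted p = 3.66e-06). Without sample 1 it was -1.52 (adjusted p = 0.000189), a setting chosen after seeing the data.

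Retnlg stood at 8.45, 6.13 and 6.69 after restimulation, a change of -1.23 (limma with the block, adjusted p = 0.000385). S100a8 stood at 9.33, 6.90 and 7.58, a change of -1.09 (adjusted p = 0.000323). Lcn2 stood at 11.14, 8.36 and 8.88, a change of -1.05 (adjusted p = 0.00284). These 3 and Mmp8 also fell in the blocked fit without sample 1, with adjusted p from 0.000189 to 0.0285.

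Wfdc17 stood at 10.87, 7.62 and 8.99, a change of -1.002 (limma with the block, adjusted p = 0.0104). Ngp stood at 10.39, 7.50 and 8.002, a change of -0.98 (adjusted p = 0.0142). Both lost the call without sample 1, at adjusted p = 0.0518 and 0.0591. S100a9 did not pass in either, at 9.43, 7.05 and 7.26 and a change of -0.53 (adjusted p = 0.0596, and 0.387 without sample 1). Even after restimulation, all 7 genes had every Th17 above every Th1 sample of day 5, as 10.9% of all genes had, by a median of 2.11, or 1.41 without sample 1.

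**Figure D3:**
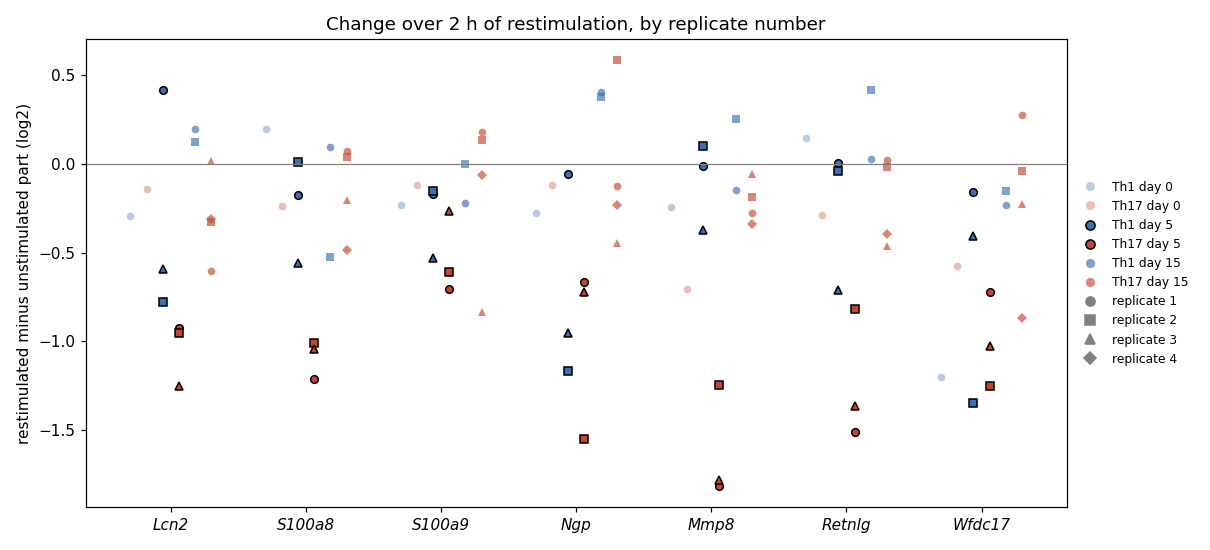
Restimulated minus unstimulated part of the same replicate number (log2, vertical axis) for each gene, coloured by type and day, with the symbol giving the replicate and a black rim marking day 5. All 21 differences of Th17 day 5 lie below 0, from -1.82 to -0.27, and those of Th17 day 15 run from -0.87 to 0.59.

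At day 15 the change over the 2 h did not pass the test for any of the genes in Th17 cells. In the Th17 samples 20 of 28 differences were below 0, with a median change over the genes of -0.21 against -0.08 over all genes. The 0 of 7 calls (limma, adjusted p 0.742 to 0.963, 0 at an unadjusted p under 0.05) stand beside 11.1% of all genes called lower. With the block none passed either (limma, adjusted p from 0.183 for Lcn2 to 0.868 for Ngp). Ngp stood at 8.16, 9.89, 6.67 and 8.98 after restimulation and Lcn2 at 7.94, 9.15, 7.15 and 8.81, overlapping the unstimulated parts. By sample number, Ngp changed by -0.12, 0.59, -0.44 and -0.23 and Lcn2 by -0.60, -0.33, 0.02 and -0.31. The restimulated Th17 and Th1 samples of day 15 overlapped for 4 of 7 genes. Lcn2, S100a8 and Wfdc17 kept every Th17 above every Th1 sample, as 8.08% of all genes did.

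Whether the change with restimulation differed between day 15 and day 5 was tested as an interaction, added after seeing the data. None of the 7 genes passed without the block (limma, adjusted p 0.397 to 0.821, where 1.17% of all genes were called). With the block, 3 of 7 passed, against 1.36% of all genes. They were Mmp8, with 1.40 (adjusted p = 0.00181), Retnlg, with 1.02 (adjusted p = 0.028), and S100a8, with 0.95 (adjusted p = 0.0189), each less negative at day 15. Without sample 1 of day 5, Mmp8 alone passed (adjusted p = 0.0134). Over 9969 genes, numbers did not pair the parts of the Th17 samples of day 15 (correlations -0.16 to 0.21), so the block has less ground there. The mean of the 7 genes did keep the order of samples 1 to 4. It stood at 6.67, 7.47, 6.18 and 7.46 in the unstimulated and at 6.61, 7.49, 5.86 and 7.07 in the restimulated parts.

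In Th1 cells, 17 of 21 differences at day 5 and 6 of 14 at day 15 were below 0. The median changes over the 7 genes were -0.29 and 0.05, against -0.01 and -0.02 over all genes. Without the block 0 of 7 genes passed at day 5 (limma, adjusted p 0.611 to 0.967, 0 at an unadjusted p under 0.05, 8.96% of all genes called lower). With the block Ngp did, with a change of -0.73 (adjusted p = 0.0403), where 8.74% of all genes were called lower. Ngp went from 6.04, 7.07 and 6.89 to 5.99, 5.90 and 5.94 in the 3 Th1 samples, so sample 1 hardly moved. At day 15 none passed (adjusted p 0.891 to 0.985, 0 at an unadjusted p under 0.05, 4.63% called lower). Averaged over both types and days, the median change was -0.38 and 0 of 7 passed (limma, adjusted p 0.235 to 0.579, 0 at an unadjusted p under 0.05, 21.1% called lower). With the block 7 of 7 fell (limma, adjusted p 6.76e-05 to 0.0278, 21.6% called lower), although over 9969 genes numbers did not pair the parts at day 15. The unblocked count was 2 without the restimulated array of Th17 sample 1 of day 5, or without both parts of that sample. In the 2 cultures of day 0, 7 of 7 genes were lower in the restimulated Th17 part and 5 of 7 in the Th1 part. Each count rests on 1 pair of arrays, with no share over all genes beside it. Changes ran from -0.71 to -0.12 in the Th17 culture and from -1.20 to 0.20 in the Th1 culture.

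To place the 7 genes among other genes of granulocytes, 47 measured genes of 5 role groups were read in the same comparisons. At day 5 without restimulation, 11 of the 47 were higher in Th17 samples and 0 were lower, where 2.31% and 1.32% of all genes were, and their median difference was 0.55 against -0.04. The receptors and surface genes held 5 of the 11. Cxcr2, the receptor that draws neutrophils toward chemokines, stood at 9.26, 6.26 and 7.60 in the Th17 samples and at 5.13, 5.59 and 5.33 in the Th1 samples, a difference of 2.36 (limma adjusted p = 0.00219). Il1r2, the decoy receptor for IL-1, differed by 1.97 (adjusted p = 0.00564), Ltb4r1, the leukotriene B4 receptor, by 1.57 (adjusted p = 7.38e-07) and Cd33 by 1.57 (adjusted p = 0.022). Csf3r, the receptor for the neutrophil growth factor G-CSF, differed by 1.45 (adjusted p = 0.00829). Cxcr2 and Csf3r were, like the 7 genes, highest in sample 1. Ltb4r1, with the smallest adjusted p of these 5, differed little among the Th17 samples, from 8.47 to 8.61.

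Of 12 other specific and gelatinase granule genes, 3 were higher: Mmp25 by 1.29 (limma adjusted p = 4.79e-05), Cd177 by 0.88 (adjusted p = 0.0447) and Mmp9, the gelatinase, by 0.82 (adjusted p = 0.0111). Ltf, which encodes lactoferrin, stood at 8.41, 6.71 and 6.53 against 5.83, 6.04 and 5.99 and did not pass (adjusted p = 0.105). Camp, which encodes the cathelicidin of specific granules, lay between 6.44 and 6.70 on all 6 arrays. Of 12 stefin, inflammatory and other genes, Ifitm6 (2.32, adjusted p = 0.00326) and Hdc (0.98, adjusted p = 0.00925) were higher, and of 7 transcription factors Spi1, which encodes PU.1 (1.02, adjusted p = 0.0444). None of the 6 genes on the list of granule enzymes of early precursors passed, with Mpo at 0.31 and Elane at 0.21. That list, called the early granule list here, includes Ms4a3 and Serpinb1a, which are not granule enzymes. Nor did Ly6g, a surface marker of mature neutrophils (0.48, adjusted p = 0.756), or Itgam (0.15, adjusted p = 0.845).

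The count of 11 rested partly on single arrays. It was 4 without the unstimulated array of Th17 sample 1, 7 without both of its parts, 5 without Th1 sample 1 and 17 without Th17 sample 2. Cxcr2, Ifitm6, Ltb4r1 and Mmp25 passed under every setting that tested them. The summed level of the 47 genes, on the linear scale, ran from 10300 to 11000 in the Th1 samples and from 11000 to 18900 in the Th17 samples, highest in sample 1. Genes high in both types weigh heavily in this sum. Pglyrp1 averaged 11.70 in the Th1 and 11.63 in the Th17 samples, Msrb1 10.41 and 10.34, and Irf8 10.45 and 9.65. The part of the 47 genes in the level of the 7 genes was not tested. After restimulation 6 of the 47 were higher in Th17 samples and 0 lower, where 2.95% and 1.02% of all genes were. They were Il1r2, Il1f9, Il1b, Ltb4r1, Clec4d and Mmp25, and between 2 and 3 were called without the restimulated array of Th17 sample 1 or of any 1 of the 3 Th1 samples.

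At day 15 the pattern among these genes was another. All 6 genes of the early granule list, which includes the non-enzymes Ms4a3 and Serpinb1a, were higher in unstimulated Th17 than in Th1 samples. Mpo, which encodes myeloperoxidase, stood at 9.96, 10.68, 10.22 and 10.47 against 7.77 and 8.12, a difference of 2.39 (limma adjusted p = 0.000456). Ctsg, which encodes cathepsin G, differed by 1.68 (adjusted p = 4.83e-05), Prtn3, proteinase 3, by 1.54 (adjusted p = 5.55e-08) and Elane, neutrophil elastase, by 1.43 (adjusted p = 1.78e-06). Sample 3, lowest of the 4 for the 7 chosen genes, stood second lowest for Mpo. Of the other granulocyte genes, Mmp25 (2.09), Lyz2 (1.70) and Ltb4r1 (1.31) were higher, and Mmp9 (-0.85) and Itgam (-0.77) lower. This made 9 higher and 2 lower of 47, where 1.88% and 2.28% of all genes were, and 0 lower without either Th1 sample. Cxcr2 and Csf3r did not pass, with differences of 0.54 each (adjusted p = 0.695 and 0.51). Beside them, 3 of 10 mast cell, basophil and eosinophil genes were higher and 1 lower. Among genes of NK and CD8 T cells 3 of 5 were lower, and 1 each was lower of the erythroid, platelet, dendritic cell and MHC class II, and IL-17-induced genes. The part of these cells in the result was not tested.

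**Figure D4:**
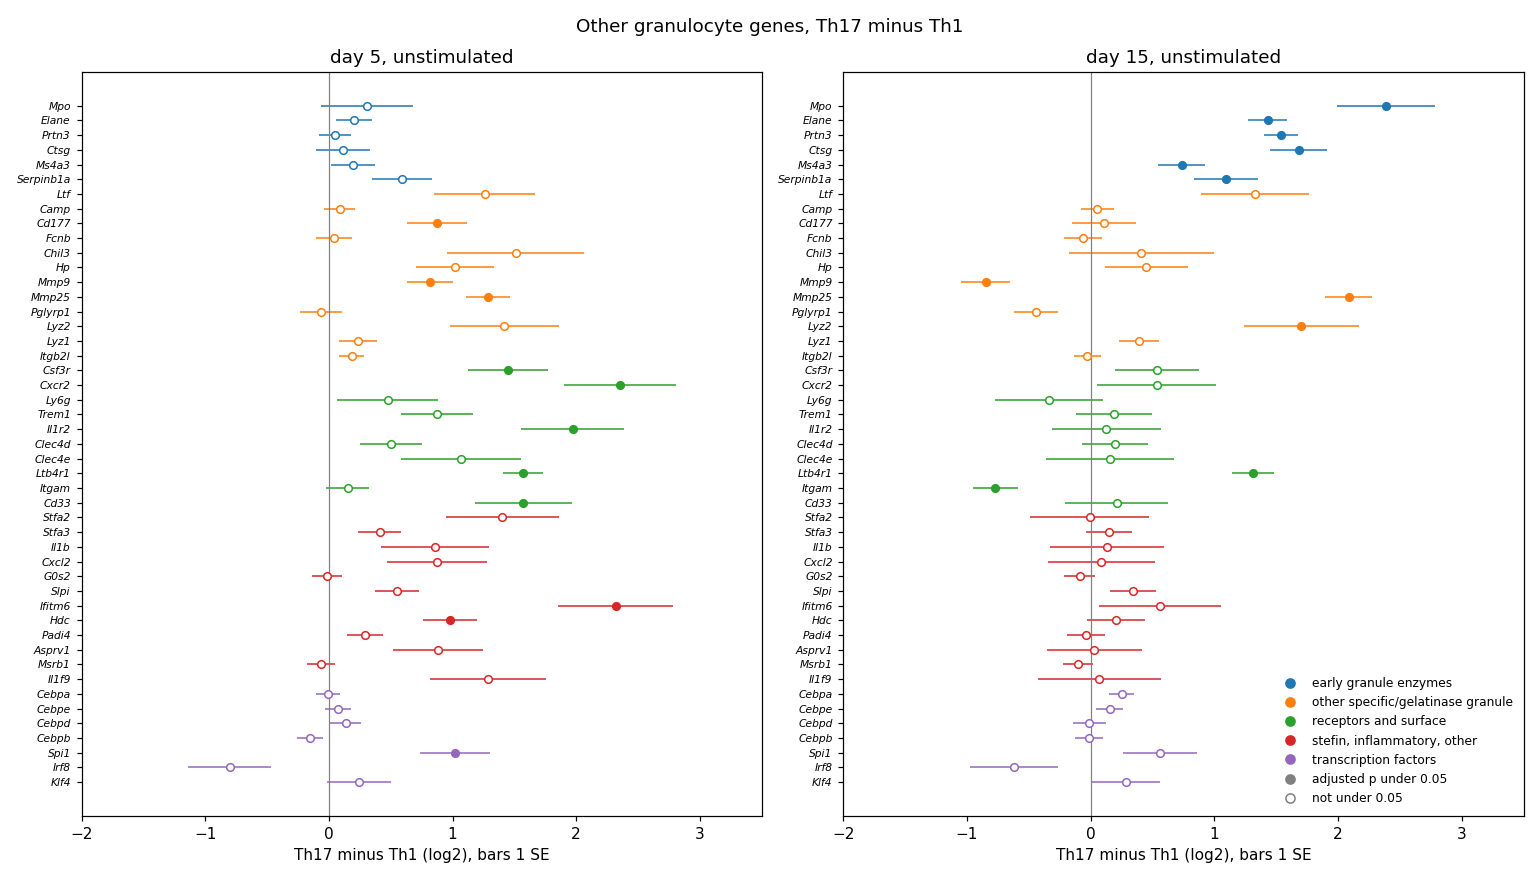
Th17 minus Th1 difference (log2, horizontal axis, bars 1 SE from the fit) of the 47 other granulocyte genes in unstimulated samples at day 5 on the left and day 15 on the right, coloured by role, filled where the adjusted p was under 0.05. No gene of the early granule list passed at day 5, with Mpo at 0.31, and all were higher at day 15, with Mpo at 2.39. Cxcr2 lay at 2.36 and 0.54.

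After restimulation at day 15, 5 of the 47 were higher in Th17 samples and 2 lower, where 3.45% and 2.98% of all genes were. Mmp25 (1.92), Klf4 (1.76), Ltb4r1 (1.07), Ctsg (0.87) and Elane (0.57) were higher, and Irf8 (-1.37) and Itgam (-0.83) lower. Without Th17 sample 3 or sample 4 the counts were 3 and 1, and without Th1 sample 1 or Th17 sample 2 only 1 was lower. Markers of other cells were lower in the same comparison: 6 of 6 erythroid, 3 of 11 dendritic cell and MHC class II, 2 of 4 platelet, 2 of 9 IL-17-induced, and 1 each of the monocyte and macrophage, the mast cell, basophil and eosinophil, and the CD4 T cell genes. None of these lists held a gene that was higher, and their part in the result was not tested.

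Of the 47 other granulocyte genes, 4 fell with restimulation in Th17 cells of day 5, where 4.08% of all genes did. They were Lyz2 (-1.73, limma adjusted p = 0.0163), Cxcr2 (-1.61, adjusted p = 0.0299), Mmp9 (-0.97, adjusted p = 0.00247) and Itgam (-0.56, adjusted p = 0.0482). None rose (0 of 47), where 3.99% of all genes did. With the block 11 fell and 2 rose, where 4.13% and 4.05% of all genes did. Those that fell included Ifitm6 (-1.44), Ly6g (-0.98), Ltf (-0.75), Csf3r (-0.61) and Spi1 (-0.59), and those that rose were Il1r2 (0.95) and Cxcl2 (0.55), a chemokine for neutrophils. Without the block, 1 fell without the unstimulated array of sample 1 or the restimulated array of sample 2 or 3, 7 without the restimulated array of sample 1, and 8 without the unstimulated array of sample 2. Of 14 monocyte and macrophage genes, 4 fell and 1 rose in the same comparison, among them the complement genes C1qb (-1.02) and C1qc (-0.63), and 2 of 6 erythroid and 1 of 10 mast cell, basophil and eosinophil genes fell. Their part in the change of the granule genes was not tested.

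At day 15, where the 7 genes did not pass, 5 of 6 genes of the early granule list fell. They were Ctsg (-1.37), Mpo (-1.35), Prtn3 (-1.29), Elane (-1.23) and Ms4a3 (-0.60), with limma adjusted p of 0.00864 or less. Klf4 rose by 2.38 and Cebpb by 0.31, which made 5 lower and 2 higher of 47, where 11.1% and 6.49% of all genes were. The counts were 10 lower and 3 higher with the replicate block, which also called Ltf, Lyz2, Ly6g, Slpi and Spi1 lower, and 11 lower and 1 higher with arrays centred on their medians. Cebpb lost its call without any 1 of 4 Th17 arrays (the unstimulated arrays of samples 1 and 4, and the restimulated arrays of samples 2 and 4), leaving 1 higher. Mast cell, basophil and eosinophil genes (6 of 10), erythroid genes (6 of 6), monocyte and macrophage genes (4 of 14, with 1 higher), platelet genes (2 of 4) and 1 of 11 dendritic cell and MHC class II genes fell beside them, and their part in these changes was not tested.

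Markers of other cells were read in the same way. Between unstimulated Th17 and Th1 samples of day 5, the counts higher and lower were 0 and 1 of 14 monocyte and macrophage genes, 0 and 1 of 11 dendritic cell and MHC class II genes, and 0 and 0 of 6 B cell genes. They were 2 and 1 of 10 mast cell, basophil and eosinophil genes, 1 and 0 of 6 erythroid genes, 0 and 0 of 4 platelet genes, and 1 and 0 of 5 NK and CD8 T cell genes. Of 9 genes of CD4 T cells and 9 genes that IL-17 induces in responding cells, 0 were called. Cpa3, a mast cell protease, was 1.64 higher in Th17 samples, at 7.49, 6.45 and 6.63 against 5.17, 5.23 and 5.25, and like the 7 genes it was highest in sample 1. Csf1r, the receptor of the macrophage lineage, lay between 6.01 and 6.89 on these 6 arrays. Not all genes of its list lay as low. Cd68 averaged 8.70 in the Th1 and 8.62 in the Th17 samples, Axl 9.42 and 9.35, and Hmox1 9.75 and 8.85. Cd3e differed by 0.02 and Cd4 by 0.19, and neither passed.

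The 7 genes moved together from array to array. Over the 28 arrays the correlation of pairs of them ran from 0.70 to 0.97 with a median of 0.91, and within the groups, as deviations from group means over the 24 arrays after transfer, from 0.75 to 0.96 with a median of 0.92. The arrays share the split samples and sample 1, so these are descriptions. The genes were also chosen for a higher level in Th17 arrays. That choice by itself raises their correlations over the 28 arrays of both types, and those with other genes higher in Th17 cells. Among all other genes, the 10 most like the mean of the 7 over the 28 arrays were Chil1 (r = 0.93), Ccr6 (0.90), Tox2 (0.88), Ltf (0.88), Hp (0.86), Lrg1 (0.86), Trem1 (0.86), Chil3 (0.86), Ccr4 (0.84) and Tlr13 (0.84). Ccr6 is the chemokine receptor of Th17 cells themselves, whereas Ltf, Hp, Trem1 and Chil3 are on the granulocyte lists. Without both parts of Th17 sample 1 of day 5, 3 of these 10 stayed among the first 10, namely Ccr6 (0.91), Chil1 (0.88) and Ltf (0.85). The rest were then Il23r (0.89), Ermn (0.88), Aqp3 (0.87), Nipal1 (0.86), Sprn (0.86), Itga7 (0.84) and Sfmbt2 (0.84), none of them on the granulocyte lists.

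Within groups, where the difference between Th17 and Th1 plays no part, the 10 most alike were Ltf (0.94), Ifitm6 (0.92), Cybb (0.92), Pilra (0.92), Fcgr3 (0.91), Igsf6 (0.91), Tyrobp (0.91), Fcer1g (0.90), Ly6g (0.90) and Chil1 (0.90). Cybb encodes the catalytic chain of the phagocyte oxidase, and Fcgr3, Fcer1g and Tyrobp encode an Fc receptor and signalling adaptors of myeloid cells. Ltf and Chil1 were in both sets of 10, and Ccr6 stood at 0.69 within groups. Without both parts of Th17 sample 1 of day 5, 2 of the 10 genes within groups stayed among the first 10, Ltf at 0.90 and Tyrobp at 0.81, and Ly6g stood at 0.64. The rest of the first 10 were then Cotl1 (0.80), Tob1 (0.78), Gtf2f1 (0.78), Calm2 (0.78), Tra2a (0.78), Lyz2 (0.77), Cyp4f18 (0.77) and Ncoa4 (0.76). Of these, only Lyz2 is on a granulocyte list, so most of the list above depended on that sample.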

How the data were processed

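Gene expression was measured on 28 Affymetrix arrays of mouse T cells in 12 groups. The authors deposited log2 values, which the submitters' processing notes credit to RMA in Affymetrix Expression Console. Its version is not given in the sources used here. The method subtracts background, gives all arrays 1 distribution and summarises probes, and no source says which arrays were normalised jointly. The 21789 of 35556 probe sets named by a single gene symbol were used, not the 1621 with several symbols or the 12146 unnamed here. Where a gene had more than 1 (999 genes), the highest-mean one stood for it, which left 19938 genes. The identifiers of 19856 were in RefSeq's gene table and 0 symbols differed from it.

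The 24 arrays after transfer, in 8 groups, entered 1 limma fit of group means (limma 3.58.1, R 4.3.3, 16 residual degrees of freedom). Calls needed an adjusted p under 0.05 (Benjamini-Hochberg, all 19938 genes). The 4 day 0 arrays, 1 per group, are given as values. Whether numbers pair the parts of a sample was checked by correlating deviations from group means (9969 genes used). By this check, numbers paired the parts at day 5 for restimulation of Th17 (0.39 to 0.48) and Th1 cells (0.16 to 0.21), and not at day 15. Restimulated Th17 and Th1 samples of equal number at day 5, which are not parts of 1 sample, also deviated together (0.21 to 0.48). The check thus cannot show that equal numbers mark parts of 1 sample, and the labels do not state it. Blocked fits had 8 residual degrees of freedom.

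The 7 genes and the 14 lists were chosen with earlier results of these data known. The lists are 5 of granulocyte genes (47 measured of 53 entries) and those of other cell types and of genes induced by IL-17. Genes named are the 7 themselves, up to 4 called genes with the largest change per granulocyte list and comparison, a set of defining markers whatever their value, and the 10 genes most like the mean of the 7 by Pearson's r, leaving out clone names. Cpa3 was named after its values were seen, as were some called genes listed to complete a count of 13 or fewer. Alternatives were the replicate block, genes above the median, a fit on just the groups compared, array centring, cyclic loess, the mean of all probe sets, a prior with trend and robust settings, and leaving out arrays. On simulated data with 200 of 19938 genes changed, 93 to 100% were found at a log2 change of 1 over the 9 comparisons first planned, with 6 to 11 false calls. The changed genes were drawn at random from all genes. The 7 genes had an unblocked SE of 0.53 (S100a8) to 0.72 (Ngp) for restimulation of Th17 cells of day 5. The share found thus does not give the power for these 7 genes. Promoters, 250 bases before to 50 after the start, are RefSeq's (GRCm38.p6), and all 7 genes matched by symbol.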

Additional observations from a re-analysis of the deposited data

Results flagged for a closer look

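Ngp changed in opposite directions with restimulation in Th1 cells of the 2 days. It was lower in the restimulated part in all 3 samples of day 5 and higher in both samples of day 15, and the mean changes differed by 1.12 log2 units. The difference was not tested. The levels involved, from 5.85 to 7.07, lie near or under the array medians.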

How the results depend on the processing

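No result turned its direction. With the replicate block, the granule genes called lower numbered 6 in Th17 cells of day 5, 1 in Th1 cells of day 5 and 7 on average over types and days. The block changed the count of other granulocyte genes to 11 lower and 2 higher (Th17, day 5) and 10 lower (Th17, day 15), and to 1 lower between the types in unstimulated samples, at day 5 and at day 15. It gave 1104 genes called between unstimulated types at day 5 against 724, and 3 granule genes in the interaction. It changed no other count of calls by over 1.5 times. Without both parts of Th17 sample 1 of day 5, 1 granule gene was lower in Th17 cells of day 5 and 2 on average, with 4 and 6 when the block was added and 1 in the interaction. Genes called were then 295 for restimulated Th17 cells of day 5 (247 with the block) and 92 for the interaction (92 with the block), and 7 other granulocyte genes were higher in Th17 at day 5 (1 higher with restimulation and the block).

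With only the compared groups, genes called with restimulation were 4720 (Th1, day 5), 42 (Th1, day 15) and 2204 (Th17, day 15), and 394 between restimulated types at day 15. The granule genes called lower in Th1 cells of day 5 were then 1. Other granulocyte genes were 1 higher and 2 lower (restimulated Th17, day 5), 7 higher and 1 lower (types, day 5) and 3 higher and 1 lower (restimulated types, day 15). Among genes above the median, these counts were 1 higher and 2 lower, 5 higher, and 1 lower, with 3 lower for restimulated Th17 cells of day 15, 3 higher for restimulated types at day 5 and 1 lower for unstimulated types at day 15. A prior with trend gave 1 lower for restimulated types at day 15. Centring arrays on medians called 6893 genes with restimulation in Th17 cells of day 15, with 11 other granulocyte genes lower and 1 higher. The cause was not tested.

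Centring moved the share of calls that were higher from 49.4 to 24.9% (restimulated Th17, day 5), 37 to 14.9% (Th17, day 15), 31.2 to 16.8% (Th1, day 5), 36.4 to 23.2% (Th1, day 15), 33.9 to 18.5% (average), 63.5 to 46.3% and 74.3 to 60.1% (types, day 5, unstimulated and restimulated) and 45.2 to 60.6% (types, day 15, unstimulated). Its median over all genes was -0.17 for restimulated Th17 cells of day 15.

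Leaving out arrays 1 at a time, genes called ran from 1350 to 2164 (restimulated Th1, day 5), 661 to 1485 (Th17, day 5), 343 to 2647 (Th1, day 15), 444 to 703 and 488 to 899 (types, day 5, unstimulated and restimulated), 283 to 828 and 619 to 2391 (types, day 15) and 117 to 350 (interaction). Granule genes called lower ran from 0 to 3 (Th17, day 5) and 0 to 2 (average). Other granulocyte genes with restimulation ran from 0 to 1 higher and 1 to 8 lower (Th17, day 5) and 1 to 2 higher (Th17, day 15). Between the types they ran from 4 to 17 and 2 to 9 higher at day 5, 0 to 2 lower at day 15, and 3 to 7 higher and 1 to 2 lower when restimulated. A lone array left in a group was assumed to vary like the others. The number of arrays limits the precision, and no detection calls tell low signal from background.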

Other observations

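The cultures held transcripts of other blood cells as well on the day of transfer. Cpa3, a mast cell protease, stood at 13.02 in the Th1 and 12.96 in the Th17 culture, against 5.17 to 7.80 on the unstimulated arrays after transfer. Fcer1a, a chain of the IgE receptor of mast cells and basophils, stood at 11.29 and 11.69. The summed linear level of 10 mast cell, basophil and eosinophil genes was 14800 in the Th1 and 16200 in the Th17 culture, against 678 to 1320 after transfer without restimulation. The cultures lay further apart for the 47 other granulocyte genes, with sums of 13700 in the Th1 and 23800 in the Th17 culture, for monocyte and macrophage genes, with 3880 and 6170, and for dendritic cell and MHC class II genes, with 5510 and 8760. Erythroid genes lay the other way, with 2540 and 1550. The Th17 culture stood above the Th1 culture for Lyz2, a lysozyme of myeloid cells (12.07 against 8.74), Il1r2 (11.42 against 8.14) and Elane (10.06 against 6.68). It stood below it for Ctsg (8.81 against 11.41) and Ly6g (8.08 against 9.85). These genes were picked after their values were seen, and with 1 culture of each type the values have no spread.

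Erythroid genes separated the days in both types. The summed linear level of 6 of them ran from 560 to 754 in the unstimulated samples of day 5 and from 6330 to 11500 in those of day 15. In the Th17 samples of day 15 it ran from 2530 to 3880 after restimulation, below every unstimulated sample.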
